A study of Mus musculus with 6 samples.

Results

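The genes described here lie next to Tyrobp on mouse chromosome 7. Tyrobp encodes Dap12, the adaptor through which several microglial receptors signal, and it is the gene disrupted in the Dap12-ko mice of this series. A list of 43 neighbouring genes was compared between Dap12-ko and Dap12-het brains, as a check for passenger effects of the targeted allele. A member was any probe set whose platform annotation gives 1 gene symbol and whose symbol is on the list. This rule found 47 probe sets for 36 of the 43 genes, of 45101 probe sets and 18193 named genes on the array. No probe set of their own was found for Ffar1, Igflr1, Kirrel2, Ovol3, Proser3, Thap8 and Zfp382, and 2 probe sets shared by U2af1l4 and Igflr1 were left out.

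Both groups came from mice aged 1 month: 3 samples with no working Dap12 gene (knockout 67, 68 and Ko1) and 3 that keep a working copy beside the disrupted one (heterozygous 75, 76 and 81). Every animal therefore carries the targeted allele, in 2 copies or in 1, and no mouse without it was profiled. Total brain RNA was hybridised to one-colour Affymetrix arrays, and the series text gives the tissue as midbrain, named together with diencephalon and basal ganglia. The sources used here do not give the strain, the targeting construct or the number of backcrosses. One label field calls all 6 samples Dap12-deficient, and the groups are taken from the titles, which separate ko from het. No label states that each array is a separate animal, and p-values here cover the spread among these samples alone, which may be technical.

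A targeted allele made in embryonic stem cells brings with it the chromosome segment around the disrupted gene. Through backcrossing, genes close to the target tend to stay linked to it and keep the variants of the stem cell strain, and a selection cassette can disturb the transcription of adjacent genes. Differences in neighbouring genes between knockout and control animals are therefore commonly checked before they are attributed to the missing protein. The segment around Tyrobp is gene-dense and mixes genes of neurons and housekeeping functions with genes of kidney, liver, stomach and lymphocytes.

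The RefSeq sequence before the start site is shown for 4 members with measured transcripts and for 1 divergent pair, because DNA close to a targeted gene tends to stay linked to it. Whether these stretches did so in these mice is not known, and their regulatory activity was not examined. Each of the first 4 is the 250 bases upstream, written 5′ to 3′ on the gene's own strand of GRCm38.p6, with CG dinucleotides in capitals. Lrfn3 is the nearest member on one side of Tyrobp, at chr7:30362773-30363022 (minus strand). Aplp1 is the nearest member on the other side whose signal was high enough to test, at chr7:30445583-30445832 (minus strand). Clip3, at chr7:30291445-30291694 (plus strand), and Rbm42, at chr7:30650229-30650478 (minus strand), were among the 4 members with the largest differences, the others being Fxyd7 and Arhgap33.
Lrfn3: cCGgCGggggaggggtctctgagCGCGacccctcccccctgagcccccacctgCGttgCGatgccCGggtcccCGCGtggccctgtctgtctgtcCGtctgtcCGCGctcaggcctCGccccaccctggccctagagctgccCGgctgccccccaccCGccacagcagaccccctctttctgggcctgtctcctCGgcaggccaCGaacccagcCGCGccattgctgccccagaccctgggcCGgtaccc
Aplp1: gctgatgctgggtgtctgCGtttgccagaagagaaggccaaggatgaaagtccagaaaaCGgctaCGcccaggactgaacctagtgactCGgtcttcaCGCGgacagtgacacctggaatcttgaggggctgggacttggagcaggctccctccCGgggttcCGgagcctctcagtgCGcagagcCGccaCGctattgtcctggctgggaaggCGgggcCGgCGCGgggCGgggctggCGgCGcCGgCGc
Clip3: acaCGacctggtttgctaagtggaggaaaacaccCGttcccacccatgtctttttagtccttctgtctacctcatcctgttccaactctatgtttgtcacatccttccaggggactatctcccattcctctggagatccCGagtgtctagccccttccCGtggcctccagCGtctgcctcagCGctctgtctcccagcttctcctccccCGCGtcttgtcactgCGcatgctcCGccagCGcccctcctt
Rbm42: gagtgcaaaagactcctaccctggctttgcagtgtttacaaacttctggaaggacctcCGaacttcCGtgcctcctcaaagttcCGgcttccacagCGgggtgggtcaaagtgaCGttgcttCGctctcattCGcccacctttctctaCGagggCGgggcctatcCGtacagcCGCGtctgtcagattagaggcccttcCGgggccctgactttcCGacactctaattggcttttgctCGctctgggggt
Psenen and U2af1l4 start back to back, and the 135 bases between their start sites, at chr7:30563205-30563339, serve as upstream sequence of both. They are written on the plus strand, in the direction of U2af1l4.
Psenen and U2af1l4: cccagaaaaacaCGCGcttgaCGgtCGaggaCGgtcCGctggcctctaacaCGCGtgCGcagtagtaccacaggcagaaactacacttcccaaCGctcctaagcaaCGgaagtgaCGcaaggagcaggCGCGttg
These windows were rich in CG. Lrfn3 and Aplp1 had 20 CG dinucleotides each, Rbm42 had 15 and Clip3 had 11, and the stretch between Psenen and U2af1l4 had 14. The median was 9 over the 45 windows of members in the table and 6 over all 32851 windows. The sequence is that of the C57BL/6J reference, and the alleles carried by these mice were not analysed here.

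The arrays were not alike within the knockout group. The Pearson correlation of log2 signals was 0.968 to 0.982 between heterozygous arrays, 0.942 to 0.954 between these and knockout Ko1, and 0.887 to 0.921 for any pair with knockout 67 or 68. Of 45 spiked control probe sets, which do not measure mouse RNA, 43 were higher on all 3 knockout arrays than on all 3 heterozygous arrays, so a technical difference between the groups' arrays cannot be told apart from genotype. Summed signals of 6 neuronal markers were 15389 to 17854 on knockout and 11833 to 12312 on heterozygous arrays, with 0 of 6 called by limma. Snap25 was the largest part (means of 6914 against 3703), Tubb3 and Nefl had lower means in knockout, and the others had higher means. For 6 oligodendrocyte markers the sums were 23934 to 60965 and 17336 to 18148, with 1 of the 6 called higher and 0 lower by limma. The called marker was Mbp, also the largest part (means of 24181 against 6050). Sums of 6 astrocyte markers overlapped, at 7796 to 9014 and 6521 to 8653, with 0 of 6 called. Summed signals of 6 microglial markers were 2107 to 2363 on knockout and 1474 to 1810 on heterozygous arrays, with 0 of 6 called. Of 5 hypothalamic markers 1 was called lower, Baiap3 (-1.68 ± 0.31, limma adjusted p = 0.0391; 267 ± 142 against 826 ± 56.2, SD, n = 3). Summed striatal markers were 2264 on knockout Ko1 and 2316 on heterozygous 81 but between 333 and 556 on the other arrays, and summed midbrain markers were 113 and 96.6 on these arrays but 531 to 808 on the others, so regional markers differed between samples within both groups. Summed choroid plexus markers were 16313 and 17952 on knockout 67 and 68 and 647 to 3744 on the other arrays. The part of these differences in the values below was not tested. In whole tissue, fewer cells of a type and less RNA per cell cannot be told apart.

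Tyrobp itself was checked first. Array values are given in the order 67, 68, Ko1 for knockout and 75, 76, 81 for heterozygous mice throughout. Tyrobp read 2.28, 23.7 and 12.9 in knockout and 70.7, 68.2 and 77.6 in heterozygous mice, so the groups did not overlap. The summed microglial markers were higher on every knockout array, with Csf1r as the largest part (means of 1208 against 955). Of these markers, Tmem119 (92.5 ± 16.7 against 124 ± 6.03) and Aif1 (40.6 ± 15.0 against 47.1 ± 9.57, SD, n = 3) had lower means in knockout, and the others had higher means. The fall of Tyrobp was 1.68 ± 0.33 on the log2 scale, with a limma adjusted p of 0.0439. Here and below, a log2 change is the difference of log2(signal + 16), knockout minus heterozygous, ± its standard error from limma with 3 arrays a group. This scale understates changes of dim probe sets. The adjusted p (Benjamini-Hochberg) is over all 22518 probe sets tested, and a call means a value of 0.05 or less. Leaving out 1 array kept Tyrobp past this threshold for knockout Ko1 and not for the other 5 arrays (adjusted p up to 0.22).

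No neighbour of Tyrobp was called. Of the 47 member probe sets, 26 lay above the median level of the array and were tested, for 22 genes, and 0 were higher and 0 lower in knockout by limma, against 1.98% of all 22518 probe sets (1.24% higher and 0.733% lower). An unadjusted p under 0.05 was reached by 8 of the 26 (30.8%), against 20.9% of all. The knockout and heterozygous arrays did not overlap for 9 of the 26, with 2 higher and 7 lower in knockout, against 27.4% of all (14.9% higher and 12.5% lower). Changes ranged from -1.10 for Fxyd7 to 1.02 for the dimmer probe set of Clip3. A change below 0 was found for 19 of the 26, and their median was -0.29, against 0.00 over all probe sets tested. The counts depended on knockout Ko1. Without it 2 member probe sets were higher and 6 lower, while 23.2% of all probe sets were then called (11.9% higher and 11.3% lower). Without knockout Ko1 and heterozygous 81, the 2 arrays with high striatal markers, the counts were again 2 and 6, against 19.9% of all (10.1% higher and 9.74% lower). Without knockout 67 and 68, which leaves 1 knockout array assumed to vary as the heterozygous ones do, 1 member was lower and 0 were higher, against 2.73% of all (1.07% higher and 1.67% lower). With arrays centred on their medians 2 were lower and 0 higher, against 2.58% of all (0.444% higher and 2.14% lower). With the lower 75% of probe sets removed 1 of 19 was lower and 0 higher, against 3.14% of all (1.49% higher and 1.65% lower).

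**Figure D1:**
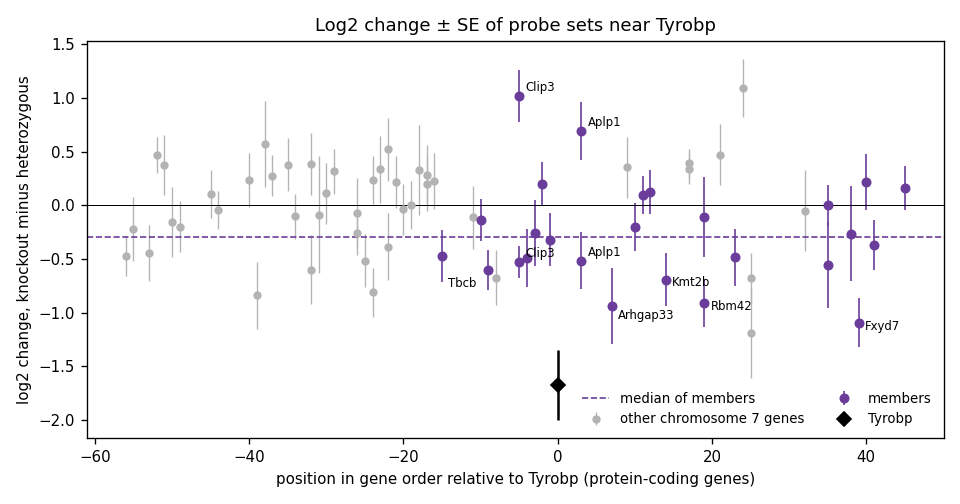
Log2 change, knockout minus heterozygous, with its standard error (vertical axis) of each tested probe set against the position of its gene relative to Tyrobp in the order of protein-coding genes on chromosome 7 (horizontal axis, up to 60 genes away). Members range from -1.10 to 1.02 around their median of -0.29 (dashed line), whereas Tyrobp is at -1.68, and other genes of the region lie on both sides of 0.

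The members' median was below 0 on each knockout array taken against the heterozygous mean. For 67, 68 and Ko1 it was -0.26, -0.052 and -0.21, while the medians over all probe sets were between 0.0081 and 0.039. Members lay below the whole heterozygous range in 14, 13 and 14 of 26 cases on these arrays. Over all probe sets the corresponding shares were 36.9%, 36.1% and 34.6%. Within groups, the members' median standard deviation of log2 signals was 0.15 over the heterozygous and 0.35 over the knockout arrays, against 0.19 and 0.37 over all probe sets.

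Changes varied with signal level over the whole array, and the members were read against probe sets of like level. At heterozygous mean signals from 50 to 200, 11 member probe sets had a median change of -0.20, against -0.055 for all 9185 in that range. From 200 to 500 it was -0.59 for 6 member probe sets, against -0.21 for 4231, and from 500 to 2000 it was -0.50 for 6, against -0.18 for 2497. In these 3 ranges the members' median was thus the lower one. The probe sets under 50 passed the filter on level more readily when they were high in knockout, and the 2 members there were at -0.26 each. The 1 member above 2000 was the brighter probe set of Aplp1, at 0.69. Of all 470 probe sets in that range, 309 were above 0 and 197 were higher on all 3 knockout arrays, with a median of 0.23. A rise was thus common among probe sets of that level.

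**Figure D2:**
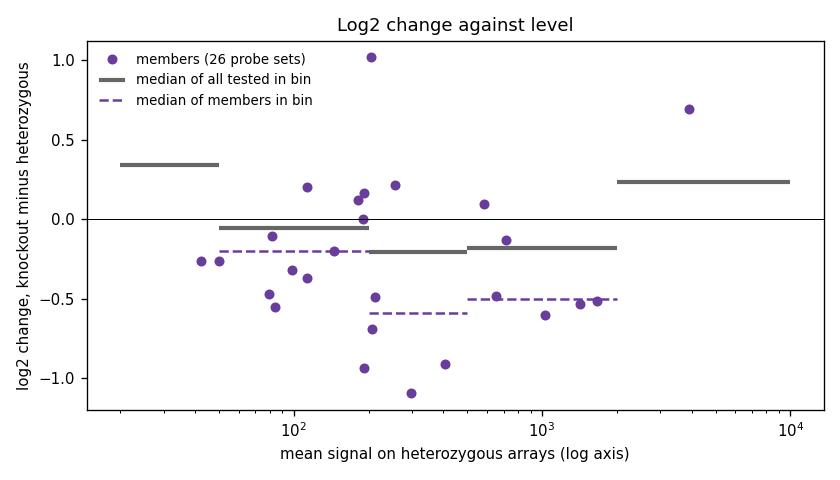
Log2 change, knockout minus heterozygous (vertical axis), of the 26 tested member probe sets against their mean signal on the 3 heterozygous arrays (horizontal axis, log scale), with the median of all tested probe sets (grey) and of the members (dashed) in ranges of signal. Between 50 and 2000 the members' medians of -0.20, -0.59 and -0.50 lie under those of all probe sets.

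The medians of signed changes did not go steadily up or down with the distance from Tyrobp, counted in genes. Members within 10 genes of it had a median change of -0.29 (12 probe sets), those 11 to 25 genes away -0.47 (7) and those 26 to 45 genes away -0.26 (7). Without regard to sign, the medians fell with distance, at 0.50, 0.47 and 0.26 in the same order, against 0.32 over all probe sets tested. The share whose groups did not overlap fell as well, at 50%, 28.6% and 14.3%, against 27.4% of all. Each range holds few probe sets. The 9 probe sets of members before Tyrobp on the chromosome had a median of -0.32 and the 17 after it one of -0.26. All these values are given without a test.

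The genes flanking Tyrobp directly were followed one by one. Lrfn3, a synaptic adhesion protein with leucine-rich repeats, is the neighbour on one side. Its signals were 63.3, 107 and 61.1 in knockout and 111, 95.9 and 87.3 in heterozygous mice. Knockout 68 lay among the heterozygous arrays and the other knockout arrays below them (-0.32 ± 0.25, limma adjusted p = 0.496). Sdhaf1, an assembly factor of succinate dehydrogenase, comes next on that side. It read 137, 111 and 152 on the knockout and 113, 116 and 110.2 on the heterozygous arrays, with knockout 68 again inside the heterozygous range (0.20 ± 0.20, limma adjusted p = 0.598).

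On the other side Tyrobp is followed by Hcst, which encodes the adaptor Dap10 and is not a member. Hcst was too dim to be tested, at 52.8, 27.7 and 18.9 on the knockout and 11.7, 21.4 and 20.1 on the heterozygous arrays. The next gene is Nfkbid, an atypical IκB protein that acts on NF-κB in the nucleus. It too was below the level required, with signals of 1.75, 1.57 and 12.3 in knockout and 13.2, 14.1 and 21.4 in heterozygous mice. All 3 knockout values were under all 3 heterozygous ones. In a fit without a filter on level Nfkbid was at -0.63 ± 0.28 (limma adjusted p = 0.293), and 522 of the 22519 probe sets not tested (2.32%) had knockout values all lower in the same way.

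Among genes of neuronal membranes and synapses, Fxyd7 came closest to the threshold. It encodes a brain regulator of the sodium pump from the FXYD family of small membrane proteins. Its signals were 114, 154 and 118 in knockout and 339.8, 322 and 224 in heterozygous mice. Every knockout array was thus lower than every heterozygous one (129 ± 22.2 against 295 ± 62.3, SD, n = 3), and the difference was -1.10 ± 0.23 (limma adjusted p = 0.0517). It passed with arrays centred on their medians (-1.497, adjusted p = 0.0359) and without the lower 75% of probe sets (-1.10, adjusted p = 0.0462). It also passed without knockout Ko1 (-1.04, adjusted p = 0.0153). It did not pass with quantile normalization (limma adjusted p = 0.0824), with no filter on level (0.0834) or with eBayes without trend (0.0675). With any other single array left out, the limma adjusted p of Fxyd7 was 0.131 to 0.248. Centring moves the median of all probe sets by -0.40.

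Its relatives in the same cluster gave other values. Fxyd1, phospholemman, read 355, 365 and 203 on the knockout and 306, 242 and 221 on the heterozygous arrays. Knockout 67 and 68 were above the heterozygous range and knockout Ko1 below it (0.22 ± 0.26, limma adjusted p = 0.673). Fxyd5, or dysadherin, read 6.88, 60.3 and 48.0 against 32.4, 51.8 and 42.8, with one knockout array on either side (-0.26 ± 0.45). Fxyd3 was too dim to be tested. Beyond the region, Fxyd6 had signals of 161, 259 and 414 in knockout and 562, 608 and 588 in heterozygous mice (-1.13 ± 0.30, limma adjusted p = 0.0898). Atp1b1, a Na,K-ATPase subunit, was higher on every knockout array on probe sets at 1.11 ± 0.27 and 1.23 ± 0.32 (limma adjusted p = 0.0721 and 0.0868). Its other tested probe sets overlapped between groups, at 0.27 ± 0.19 and 0.14 ± 0.18. Of the 5 genes tested among Na,K-ATPase subunits and other FXYD proteins, 0 of 9 probe sets were called by limma, with a median of 0.17.

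Aplp1, the member of the amyloid precursor family that is made mainly in the brain, was measured by 2 probe sets that went opposite ways. The brighter one read 8828, 7315 and 3963 in knockout and 3951, 3883 and 3945 on the heterozygous arrays (0.69 ± 0.27, limma adjusted p = 0.192). Knockout Ko1 was thus close to the heterozygous arrays, and the other knockout arrays were far above them. The dimmer one read 1345, 1568 and 739 against 1702, 1592 and 1707 (-0.52 ± 0.27, limma adjusted p = 0.307). Here knockout Ko1 stood farthest below. Without knockout 67 and 68 this dimmer probe set was called at -1.16 (limma adjusted p = 0.0263), and without knockout Ko1 it was at -0.20 (limma adjusted p = 0.263). The brighter one was called at 1.03 (limma adjusted p = 0.00102) without knockout Ko1. It was at 0.057 (limma adjusted p = 0.915) with quantile normalization, 0.29 with arrays centred, 0.45 without knockout 67 and 0.013 without knockout 67 and 68, so its higher level rests on knockout 67 and 68 and on the scaling.

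Psenen, which encodes the gamma-secretase subunit PEN-2, lies next to U2af1l4. It read 552, 646 and 671 in knockout and 651, 549.7 and 549 in heterozygous mice (0.09 ± 0.18, limma adjusted p = 0.799). Its divergent partner U2af1l4, a splicing factor related to U2AF, read 179, 245 and 177 against 176, 164 and 204 (0.12 ± 0.21, limma adjusted p = 0.774). The groups overlapped for both genes of the pair whose shared upstream sequence is shown above. The other gamma-secretase genes, from a list of 6, had 7 tested probe sets for 4 genes, 0 of them called by limma, with a median of 0.17.

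Lgi4, a secreted ligand required for myelination by Schwann cells, read 101, 74.4 and 74.5 in knockout and 144, 95.9 and 100.1 in heterozygous mice. Knockout 67 reached into the heterozygous range (-0.37 ± 0.23, limma adjusted p = 0.398). Its relative Lgi1, a ligand of synaptic ADAM22 receptors encoded on another chromosome, rose on one probe set by 1.13 ± 0.17 (limma adjusted p = 0.0277). On that probe set Lgi1 read 466, 464 and 479 in knockout and 225, 196 and 199.8 in heterozygous mice. A second probe set of Lgi1 was at -0.70 ± 0.35 (limma adjusted p = 0.298), and with arrays centred the first was not called (0.72, adjusted p = 0.097).

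Genes of the cytoskeleton and of membrane traffic held the second largest difference among members. Clip3, a cytoplasmic linker protein of the trans-Golgi network, also had 2 probe sets with opposite signs. The brighter read 989, 995 and 952 in knockout and 1395, 1444 and 1426 in heterozygous mice. The groups did not overlap (-0.53 ± 0.15, limma adjusted p = 0.0982). The dimmer read 393, 561 and 350.3 against 194, 256 and 167, with every knockout array higher (1.02 ± 0.24, limma adjusted p = 0.0705). Both were called without knockout Ko1, at -0.51 (adjusted p = 0.0155) and 1.15 (adjusted p = 0.0105). With arrays centred the dimmer one was at 0.62 (limma adjusted p = 0.154).

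The ratio of the 2 probe sets of a gene within each array was compared for the 4 members with 2 tested probe sets. For Clip3 the log2 ratio of brighter over dimmer was 1.17 ± 0.32 in knockout and 2.72 ± 0.28 in heterozygous mice (SD, n = 3; exact permutation p = 0.1, two-sided, the smallest that 3 against 3 allows). For Aplp1 it was 2.44 ± 0.25 and 1.23 ± 0.042 (SD, n = 3; exact permutation p = 0.1). The Benjamini-Hochberg value over the 4 genes was 0.2 for both by this exact test. Ratios of the 2 probe sets overlapped between groups for Rbm42 (exact permutation p = 0.4, adjusted 0.533) and Usf2 (exact permutation p = 0.6, adjusted 0.6). For Clip3 and Aplp1 the ratios of the groups did not overlap, although the design cannot reach p under 0.1. How often such ratios do not overlap over all genes with 2 tested probe sets was not counted. The separation is therefore not shown to be particular to these genes. Of all single probe sets tested, 27.4% did not overlap. Which transcript forms the probe sets cover was not analysed here.

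**Figure D3:**
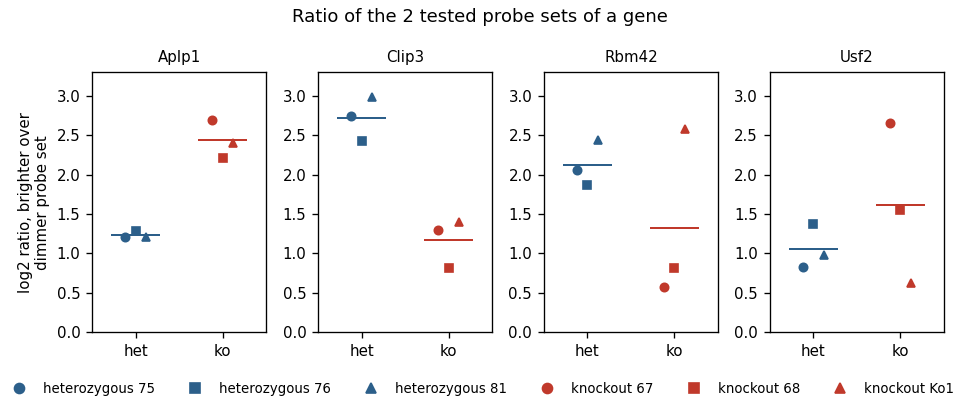
Log2 ratio of the brighter over the dimmer tested probe set (vertical axis) of Aplp1, Clip3, Rbm42 and Usf2 on the 3 heterozygous (het) and 3 knockout (ko) arrays, with the group means as lines. The groups are apart for Aplp1, at 1.23 against 2.44, and for Clip3, at 2.72 against 1.17, and they overlap for Rbm42 and Usf2.

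Tbcb, a cofactor in the folding of tubulin, read 595, 599 and 842 in knockout and 1074, 1005 and 999 in heterozygous mice. The groups did not overlap, with knockout Ko1 between knockout 67 and 68 and the heterozygous arrays (-0.60 ± 0.19, limma adjusted p = 0.126). Without knockout Ko1 it was called at -0.76 (limma adjusted p = 0.00508), and without knockout 67 and 68 it was -0.28 (limma adjusted p = 0.286). Of the other tubulin cofactor genes, 11 probe sets of 6 genes were tested and 0 called by limma. Arhgap33, a GTPase-activating protein, read 67.6, 68.1 and 141 against 136, 146 and 295. Knockout Ko1 was within the heterozygous range (-0.94 ± 0.35, limma adjusted p = 0.181), and without it the change was called at -1.24 (limma adjusted p = 0.0252). Without heterozygous 81, the highest array, it was -0.61 (limma adjusted p = 0.449), and without knockout 67 and 68 it was -0.33. Capns1, the small subunit of the calpains, read 759, 707 and 513 against 697, 769.6 and 682 (-0.13 ± 0.20, limma adjusted p = 0.737). Syne4, a nesprin of the nuclear envelope, read 54.2, 19.8 and 49.2 against 55.7, 47.7 and 46.0 on its tested probe set (-0.26 ± 0.31), with knockout 68 apart from the rest.

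Among genes that act in the nucleus or on RNA, Rbm42 differed most. This RNA-binding protein read 159, 209 and 275 in knockout and 399, 396 and 428 on the heterozygous arrays, on its brightest probe set. All knockout arrays were lower than all heterozygous ones; the change was -0.91 ± 0.22 (limma adjusted p = 0.0735), and it was -1.09 (limma adjusted p = 0.00451) without knockout Ko1 and -0.54 (limma adjusted p = 0.137) without knockout 67 and 68. A second, dimmer probe set read 102, 112 and 32.6 against 83.6, 97.0 and 65.6, with knockout 67 and 68 above all heterozygous arrays (-0.11 ± 0.37). Its remaining probe set lay below the level required.

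Kmt2b, a methyltransferase of histone H3 lysine 4, read 175, 109 and 93.6 in knockout and 195, 199 and 227 in heterozygous mice. Its groups did not overlap, and the difference was -0.69 ± 0.25 (limma adjusted p = 0.159). It passed the threshold with arrays centred on their medians (-1.10, limma adjusted p = 0.0472). Kmt2a, its relative on another chromosome, fell on one probe set by 1.19 ± 0.20 (limma adjusted p = 0.0325), from 202 ± 19.0 to 79.8 ± 9.18 (SD, n = 3), and its second tested probe set was at -0.51 ± 0.21. In the list of 10 other genes of H3K4 methyltransferase complexes, 18 probe sets were tested, of which this 1 was lower and 0 higher.

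Alkbh6, a member of the AlkB family of dioxygenases, read 92.0, 175 and 189 in knockout and 239.9, 189 and 207 in heterozygous mice. The groups were separate by under 1 signal unit, between knockout Ko1 and heterozygous 76 (-0.49 ± 0.27, limma adjusted p = 0.342). Knockout 67 was the lowest array, and without it the change was -0.20 (limma adjusted p = 0.657). Zfp566, a zinc finger protein, read 49.4, 44.9 and 64.2 against 61.3, 92.8 and 85.3 (-0.47 ± 0.24, limma adjusted p = 0.299). Lin37, a subunit of the DREAM complex that represses cell cycle genes, read 94.0, 154 and 132 against 156, 138 and 143 (-0.20 ± 0.22, limma adjusted p = 0.639). For both genes the groups overlapped.

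Usf2, a transcription factor that binds E-boxes, was level on its brighter probe set. It read 218, 188 and 165 in knockout and 190.5, 188 and 190.1 in heterozygous mice (0.00 ± 0.19, limma adjusted p = 0.999). The dimmer probe set read 21.1, 53.6 and 101 against 101, 62.5 and 88.6 and was at -0.55 ± 0.40 (limma adjusted p = 0.467). The values of the knockout arrays spread more widely than those of the heterozygous arrays on both. The partner gene Nfkbia, the classical IκB and a relative of Nfkbid, fell on 1 of 5 tested probe sets by 1.15 ± 0.19 (limma adjusted p = 0.0337), from 292 ± 11.9 to 124 ± 20.9 (SD, n = 3). The other tested probe sets of Nfkbia were between -0.59 and -0.20 and were not called. Of 10 genes of the NF-κB and IκB list, 4 were tested with 8 probe sets, and this 1 was lower and 0 higher.

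Of the members that act in other organelles, Tmem147, a protein of the endoplasmic reticulum membrane, read 319, 450.5 and 665 in knockout and 737, 635 and 577 in heterozygous mice. Knockout Ko1 lay within the heterozygous range and the other knockout arrays below it (-0.48 ± 0.27, limma adjusted p = 0.337), and without Ko1 the change was called at -0.74 (limma adjusted p = 0.0247). Without knockout 67 it was -0.23 (limma adjusted p = 0.651), and without both 67 and 68 it was 0.039. Gramd1a, which moves sterols to the endoplasmic reticulum, read 223, 228 and 196 against 166, 173 and 238, so that all its knockout values were inside the heterozygous range (0.16 ± 0.21, limma adjusted p = 0.687).

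**Figure D4:**
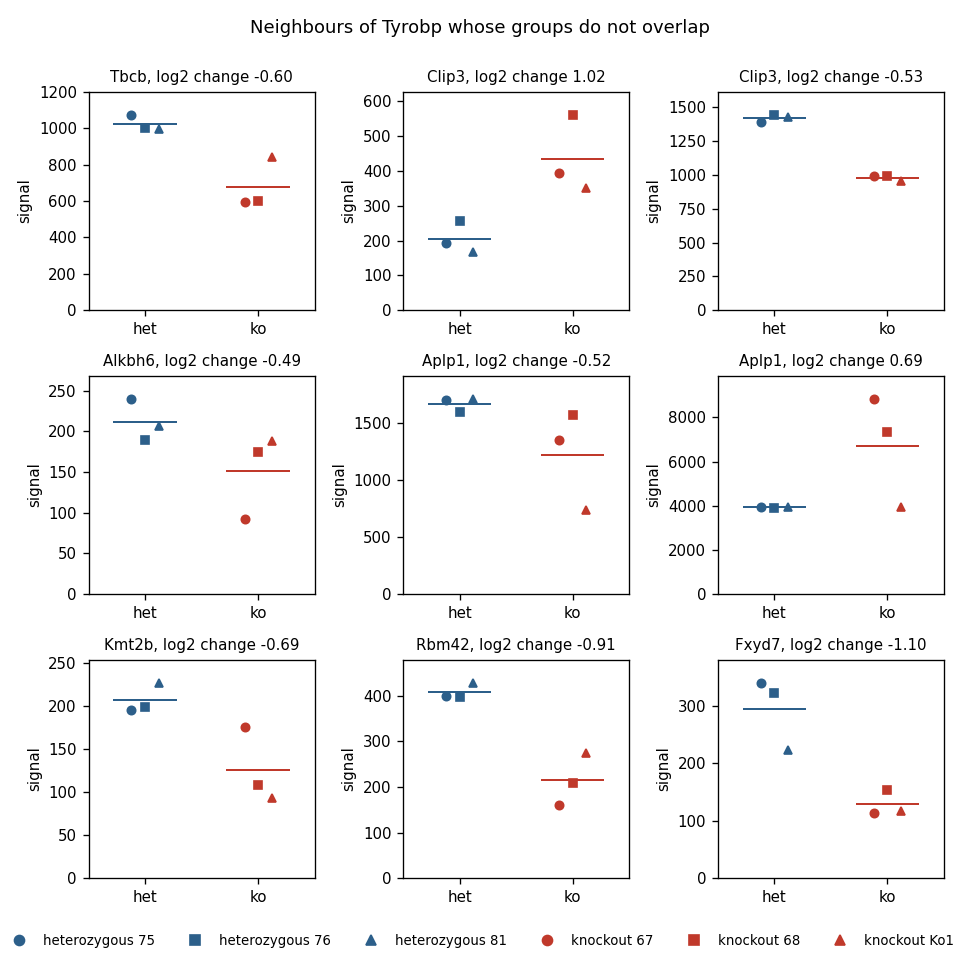
Deposited signal (vertical axis, linear from 0) of the 9 tested member probe sets whose 3 heterozygous (het) and 3 knockout (ko) arrays did not overlap, with group means as lines. Clip3 and Aplp1 each appear with a probe set that was higher and one that was lower in knockout, and Fxyd7 has the largest change at -1.10.

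The remaining 21 member probe sets were too dim to be tested, and 14 genes had no other. Many are known from other organs: Nphs1 is nephrin of the kidney filter, Upk1a a uroplakin of the bladder and Atp4a the gastric proton pump. Hamp is the liver hormone hepcidin, Hpn a liver protease, and Cd22 a receptor of B cells. Signals of these 21 probe sets were at most 54.9, and 18 of them stayed under 50 on all 6 arrays. The B cell markers Cd79a, Cd79b and Ms4a1 were likewise too dim to be tested, with summed signals of at most 56.2 on knockout and 27.8 on heterozygous arrays. The 2 probe sets of Cd22 read 22.6 to 33.5 and 0.790 to 2.29 in knockout and 11.3 to 25.2 and 0.674 to 4.62 in heterozygous mice. In a fit without a filter on level 0 of the 21 were called by limma. In that fit 0.275% of all 45037 probe sets were called, but only 2 of the 22519 not tested, so calls were rare at this level. The median change of the 21 was 0.28, beside 0.27 for all 22519 probe sets not tested.

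Among these dim members, 4 had higher signals on all knockout arrays and 1, Nfkbid, lower ones, against 18.8% and 2.32% of all probe sets not tested. Zbtb32, a transcriptional repressor of lymphocytes, read 37.0, 50.3 and 17.0 in knockout and 1.66, 2.80 and 6.05 in heterozygous mice, the largest difference of the 21. The second Zbtb32 probe set overlapped between groups, at 45.4, 10.8 and 9.85 against 11.1, 11.9 and 13.0. A dim probe set of Syne4 read 42.0, 31.2 and 20.3 against 6.33, 14.1 and 4.30, while its tested probe set was at -0.26. The others were 1 probe set each of Hamp and Lsr; Hamp has a near-identical copy, so its signal is uncertain. Among all 22519 probe sets not tested the change was above 0 for 17649. The groups overlapped on every probe set of Wdr62, Haus5, Etv2, Prodh2 and Fxyd3.

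**Figure D5:**
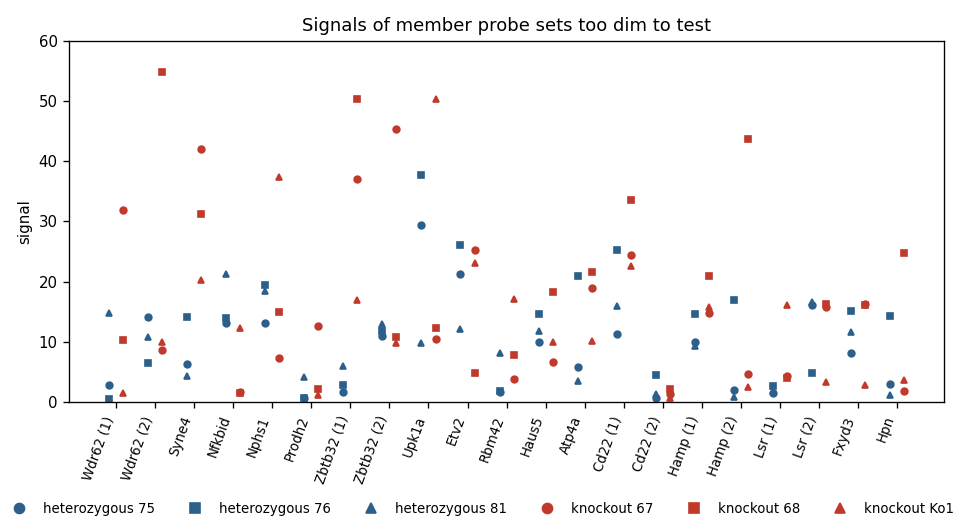
Deposited signal (vertical axis, linear) of the 21 member probe sets too dim to be tested, in order along chromosome 7, on the 3 heterozygous arrays (blue, left) and 3 knockout arrays (red, right). The highest value is 54.9, and the knockout values lie above all heterozygous ones for 1 probe set each of Syne4, Zbtb32, Hamp and Lsr.

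Genes of the same region that are not members were counted for comparison. Among the 50 genes nearest to Tyrobp on each side that have a probe set, 64 were not members, and 60 probe sets of 46 of them were tested. Of these 1 was higher and 0 were lower by limma, and their median change was -0.041. The 1 call was a probe set of Garre1, which was the 85th gene after Tyrobp. It read 84.5, 76.9 and 59.9 in knockout and 15.7, 12.7 and 12.5 in heterozygous mice (1.59 ± 0.25, limma adjusted p = 0.0287), whereas 2 more probe sets of Garre1 were at -0.66 ± 0.21 and -0.19 ± 0.46. The heterozygous signals of the called probe set were all under the filter level of 24.2, so it was tested only through its knockout signals. Garre1 was no longer called after quantile normalization (1.32, limma adjusted p = 0.0549) or with no filter on level (limma adjusted p = 0.072). With any single array other than knockout Ko1 left out, the call was also lost (limma adjusted p = 0.0828 to 0.179). It was at 1.36 (adjusted p = 0.0614) with the arrays of knockout 67 and 68 left out. Of the partner and family genes of the members, 105 in 21 lists, 147 probe sets of 80 genes were tested. They include chromosome 7 genes (Nfkbib, Lrfn1, U2af2 and Setd1a), and the tested probe set of Nfkbib is also among the 60 of the region. Lgi1 was higher and Kmt2a and Nfkbia were lower, and the median was 0.00. Each of these calls held without knockout Ko1 and was lost when one of the remaining arrays was omitted (limma adjusted p up to 0.192). Thus 3 of 147 were called beside 0 of 26 members and 1.98% of all.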

How the data were processed

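RNA from mouse brain, 3 Dap12-ko and 3 Dap12-het samples, was hybridised to one-colour Affymetrix arrays. The authors' deposited values are linear signal intensities from GCOS, the scanner software, per the submitters' processing notes; the sources used here give no version, summary algorithm or detection calls. The 2% trimmed mean of the deposited intensities was 100 on every array, and this scaling was kept.

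Signals were transformed as log2(signal + 16). The 64 control probe sets were left out, and probe sets whose mean log2 signal lay above the median were tested (22518 of 45101). Knockout minus heterozygous was fitted with limma 3.58.1 in R 4.3.3 (1 term for group, eBayes with trend, two-sided, Benjamini-Hochberg over all probe sets tested). The procedure was also run on simulated data with the same spread in both groups and no shift between arrays. That run does not cover the wider spread of the knockout arrays or the technical difference between the groups' arrays. Gene order and promoter sequences are from RefSeq, assembly GRCm38.p6. No assembly is named for the arrays, so coordinates are given for RefSeq sequences alone. Promoter sequences were found for 38 of the 43 genes.

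The members and lists were chosen with earlier results of these data known. Named were Tyrobp, the genes beside it and up to 10 member probe sets a direction by p. Also named were members whose groups did not overlap or whose probe sets disagreed, and called genes of the region and of the partner lists. The other tested members are given as well, and Fxyd6 and Atp1b1 are named beside Fxyd7 though not called. The sources used here give no scan dates or slides. Alternatives were other normalizations, added constants, filters, variance models, 1 value per gene and the omission of arrays. The number of arrays limits the precision.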

Additional observations from a re-analysis of the deposited data

Results flagged for a closer look

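Signal outside the comparison was seen in the spiked controls, which are added during processing and are not mouse transcripts. Of 45 such probe sets, 43 were higher on all 3 knockout arrays than on all 3 heterozygous arrays and 0 were lower on all 3. Their summed signals reached 616773, 404870 and 394014 in knockout, against 144368, 153046 and 159277 in heterozygous mice.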

How the results depend on the processing

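Over the 19 alternatives the number of member probe sets called higher was 0 to 2 and called lower 0 to 6. With 1 array left out at a time it was 0 to 2 higher and 0 to 6 lower, the highest counts being without knockout Ko1. It was also 2 higher and 6 lower without knockout Ko1 and heterozygous 81 together, where 19.9% of all probe sets were called. It was 2 lower with arrays centred on their medians (Fxyd7 and Kmt2b), 1 lower without the lower 75% of probe sets (Fxyd7) and 1 lower without knockout 67 and 68 (Aplp1). Centring moved the calls over all probe sets from 280 higher and 165 lower to 100 higher and 481 lower. A filter on the mean linear signal, chosen after seeing the data, changed neither member count. With 1 array left out, no probe set at all was called by limma without knockout 67 (3926 at an unadjusted p under 0.05), knockout 68 (3566), heterozygous 75 (2846) or heterozygous 81 (3207).

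The members' median change was below 0 in the 19 alternatives and below that of all probe sets by 0.09 to 0.41. It was -0.69 with arrays centred, -0.42 with a floor of 1, -0.18 with 64 added and -0.043 over 47 probe sets with no filter; with 1 array left out it ranged from -0.37 to -0.22. Tyrobp kept its direction but was not called with a floor of 1 (-3.02), or, at -1.68, with no filter, without the trend, on the brightest probe set of each gene or on gene means. With 1 array left out it ranged from -1.94 to -1.38, and it was called only without knockout Ko1.

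For other genes of the region, 1 of 60 probe sets was called. This count became 0 with quantile normalization, no filter, the lower 75% removed, the brightest probe set or gene means. It was 10 of 60 without knockout Ko1 and heterozygous 81, and 0 to 15 with 1 array left out. For partner genes, 3 of 147 probe sets were called. That count became 1 with quantile normalization or no filter and 0 with the brightest probe set or gene means. It was 30 of 147 without knockout Ko1 and heterozygous 81, and 0 to 37 with 1 array left out. Over all probe sets, 19.9% were called without knockout Ko1 and heterozygous 81, and 0 to 23.2% with 1 array left out. The cause was not tested.

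None of the members whose sign turned was called where it turned. Centring moves every probe set together, by -0.40 at the median, so that small positive changes turn by construction: Fxyd1 was at -0.18, Gramd1a at -0.24, Psenen at -0.31, Sdhaf1 at -0.20 and U2af1l4 at -0.28. Without knockout 67 and 68, Fxyd1 was at -0.30, Fxyd5 at 0.15, Tmem147 at 0.039, U2af1l4 at -0.030 and the dimmer Usf2 probe set at 0.25. Without knockout Ko1 and heterozygous 81, Psenen was at -0.0015 and the dimmer Rbm42 probe set at 0.22. With 1 array left out, Capns1 ranged from -0.24 to 0.034, Fxyd5 from -0.59 to 0.27, Syne4 from -0.44 to 0.044, U2af1l4 from -0.020 to 0.20, the dimmer Rbm42 probe set from -0.36 to 0.34 and the brighter Usf2 probe set from -0.095 to 0.091. The brighter Usf2 probe set was also at 0.094 with quantile normalization, 0.00065 with 64 added and 0.093 without knockout Ko1 and heterozygous 81. No paired analysis was made because the labels name no pairs between the groups.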
